A study of Bos taurus with 4 samples.

Results

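UCP2 and UCP3 encode mitochondrial uncoupling proteins, and each had 1 row among the 29792 gene rows counted in 4 bovine QuantSeq libraries. The pair was chosen by gene symbol and selected on its counts in these same libraries, since UCP3 had many reads in organoids at passage 5 and none in intestine. The differences below are therefore a description, with no test. The libraries were 1 of intestine, 1 of muscle, 1 of intestinal organoids at passage 5 (P5 organoids) and 1 of intestinal organoids at passage 10 (P10 organoids). All came from Hanwoo cattle. The organoids were grown from crypts of the jejunum of healthy animals over 24 months old, in Matrigel with IntestiCult medium, and had no other treatment in the labels. Whether the tissues and both passages came from the same animal was not given in the sources used here. With 1 library per condition no difference had a replicate check, and the intervals below are 95% intervals of counting error only.

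Uncoupling proteins belong to the SLC25 family of carriers in the inner mitochondrial membrane. UCP1, the founding member, lets protons return to the matrix without ATP synthesis and so produces heat in brown fat. UCP2 is transcribed in many tissues, among them the gut and immune cells, and has been linked to the export of metabolites from mitochondria and to lower production of reactive oxygen. UCP3 is known chiefly from skeletal muscle and brown fat, and its transcription follows the supply of fatty acids through the PPAR nuclear receptors. UCP2 and UCP3 are neighbouring genes in mammals.

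The libraries held 12917720 to 17776273 reads, and 22200 rows had at least 1 read in any library. QuantSeq reads come from the 3′ ends of polyadenylated RNA, so a gene's reads do not grow with its length. The levels of UCP2 and UCP3 were compared between libraries, and with each other only as a share of the reads of both. RN18S1, which encodes 18S ribosomal RNA, took 23.6% of the muscle reads and 0.264% to 4.81% of the others. The markers of the labelled sources were present. All 10 skeletal muscle markers had more than 3 reads in muscle, with a summed level of 53238 CPM (counts per 1000000 reads of the library) against 2.20 to 3.66 CPM elsewhere. All 8 epithelial markers had more than 3 reads in intestine and in both organoid libraries. Their summed level was 10123 CPM at P5, 9531 CPM at P10, 1861 CPM in intestine and 21.4 CPM in muscle, where VIL1, KRT18, CDX2 and CDX1 were at 0.

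UCP2 was read in all 4 libraries and was highest in P5 organoids. It had 404 reads in intestine, or 22.7 CPM (20.6 to 25.1). In muscle it had 99 reads, or 7.66 CPM (6.23 to 9.33). In P5 organoids it had 4770 reads, or 351 CPM (341 to 361). In P10 organoids it had 1380 reads, or 77.8 CPM (73.8 to 82.0). The order by CPM was thus P5 organoids, P10 organoids, intestine and muscle, and no neighbours in this order had overlapping counting intervals.

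UCP3 had a different order, with muscle second and intestine last. It had no reads in intestine, where a count of 0 allows a level of up to 0.169 CPM. In muscle it had 523 reads, or 40.5 CPM (37.1 to 44.1). In P5 organoids it had 2278 reads, or 168 CPM (161 to 175). In P10 organoids it had 50 reads, or 2.82 CPM (2.09 to 3.72). P5 organoids were thus above muscle, the tissue for which UCP3 is best known, and P10 organoids were far below it.

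The share of UCP3 among the reads of the 2 genes needs no scaling between libraries. It was 84.1% in muscle (Wilson interval 81.0 to 86.7, 523 of 622 reads) and 32.3% in P5 organoids (31.2 to 33.4, 2278 of 7048 reads). It was 3.5% in P10 organoids (2.66 to 4.58, 50 of 1430 reads) and 0% in intestine, where 0 of 404 reads allows a share of up to 0.743%. The reads of the pair were mostly UCP3 in muscle and mostly UCP2 in the other 3 libraries.

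**Figure D1:**
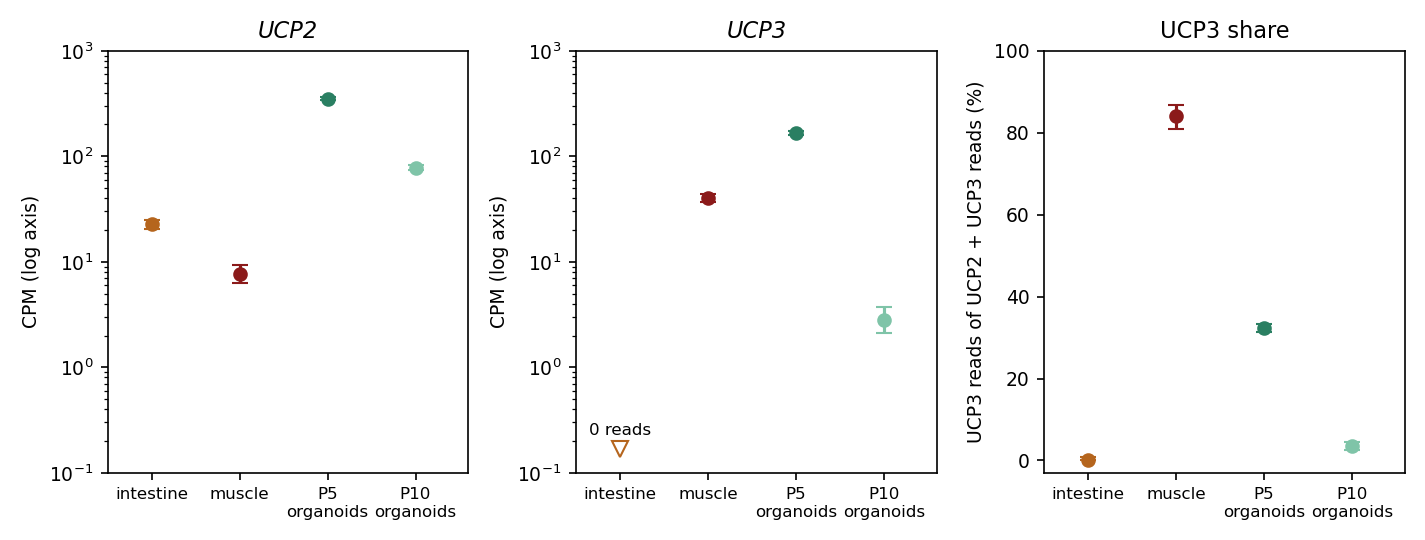
Levels of UCP2 and UCP3 in CPM on log axes, and the share of UCP3 among the reads of both genes in percent, in 1 library each of intestine, muscle, P5 organoids and P10 organoids. Points are single libraries, and bars are 95% counting intervals (exact Poisson for CPM, Wilson for the share). The open triangle and the top of the intestine bar for the share are the limit of 3 reads set for a count of 0. Both genes were highest in P5 organoids, and UCP3 went from 40.5 CPM in muscle to 0 reads in intestine.

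Differences were measured after quantile normalisation, the method the study names, as log2(value + 1). Against intestine, UCP2 was 14.5-fold higher in P5 organoids (log2 difference 3.86, 3.71 to 4.03) and 2.93-fold higher in P10 organoids (1.55, 1.39 to 1.73). UCP3, set against the value of 3 reads in intestine, exceeded it by at least 1135-fold in P5 organoids and by at least 23.8-fold in P10 organoids. These bounds depended on the scaling and fell to 379-fold and 8.58-fold with a pseudocount of 5. Both genes thus passed 2-fold upward in both organoid libraries, as did 26.4% of all rows with a read at P5 and 28.7% at P10. Of the 14060 rows with at least 50 reads in either library, with counts of 3 or fewer set at 3 reads in every row, 4 had a larger difference than UCP3 between P5 organoids and intestine, and 262 had a larger one than UCP2. This contrast was used to choose the pair, and these ranks are a description of it.

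Between the passages, UCP3 was 47.8-fold lower in P10 than in P5 organoids (log2 difference -5.58, -5.92 to -5.26). UCP2 was 4.95-fold lower (-2.31, -2.39 to -2.21). Over all rows, 17.7% were at least 2-fold lower in P10 organoids. Of the 12735 rows with at least 50 reads in either passage, 11 were lower in P10 organoids by more than UCP3 was, counted the same way, and 351 by more than UCP2 was. P5 organoids enter this comparison and the one with intestine, so these comparisons share 1 library. The high UCP3 count in P5 organoids was used to choose the pair, so the ranks between the passages are also a description. Passage and culture-to-culture variation cannot be told apart, since each passage had 1 library.

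Against muscle the genes parted. UCP2 was 18.2-fold higher in P5 organoids (log2 difference 4.18, 3.93 to 4.47) and 3.67-fold higher in P10 organoids (1.88, 1.61 to 2.17), and 31.4% and 31.7% of all rows passed 2-fold upward there. In P5 organoids UCP3 exceeded muscle 1.99-fold (log2 difference 0.996, 0.89 to 1.12), a value that cannot be told apart from 2-fold. It was 24.0-fold lower than muscle in P10 organoids (-4.58, -4.93 to -4.25), where 27.6% of rows were at least 2-fold lower. In intestine UCP3 was at least 569-fold lower than in muscle, a bound that fell to 174-fold with library totals, and 28.1% of rows were at least 2-fold lower there. UCP2 differed little between these tissues, by 0.32 on the log2 scale (0.02 to 0.64). Comparisons with muscle moved with the scaling. When counts were scaled by library totals, the median row moved by 1.10 (P5 organoids minus muscle), 0.91 (P10 organoids minus muscle) and 0.98 (intestine minus muscle). On that scale 52.4% and 46.8% of rows passed 2-fold upward against muscle at P5 and P10, and 13.3% were at least 2-fold lower in intestine. The log2 difference of UCP2 between intestine and muscle was then 1.56, and that of UCP3 between P5 organoids and muscle was 2.05.

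The intestine and muscle libraries were labelled as tissue, and organoids grow from epithelial crypts, so fewer cells of a type and less RNA per cell cannot be told apart. In intestine all 12 immune markers had more than 3 reads, with a summed level of 5532 CPM, against 17.5 CPM in P5 organoids and 25.7 CPM in P10 organoids. In P5 organoids CD3D, CD79A, CD79B, CSF1R, TYROBP, CORO1A and CD2 were at 0. The 6 smooth muscle markers summed to 2129 CPM in intestine and to 21.7 and 53.4 CPM in P5 and P10 organoids, and the 6 stromal markers to 998 CPM and to 3.68 and 0.282 CPM. The 5 endothelial markers summed to 45.2 CPM in intestine and to 1.54 and 2.31 CPM in the organoids, and the 6 adipose markers to 16.9 CPM and to 1.54 and 0.282 CPM. The part of these cells in the UCP2 and UCP3 levels was not tested.

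Set against the epithelial markers alone, UCP2 had 12.2 reads per 1000 marker reads in intestine (11.1 to 13.5), 34.6 in P5 organoids (33.7 to 35.6) and 8.17 in P10 organoids (7.74 to 8.61). On this scale P5 organoids were still above intestine, but P10 organoids were below it, by a log2 difference of -0.58. With summed reads the reversal depended on the keratins KRT8, KRT18 and KRT19, which gave 73.1% of the marker reads in intestine and 89.8% in P10 organoids. Without them the difference was 0.82 (0.66 to 0.99), on marker reads that were mostly of EPCAM and VIL1. Against the 8 markers singly, UCP2 was lower in P10 organoids than in intestine for 6 and higher for EPCAM (0.93) and VIL1 (1.51). The 6 were the keratins, CDX1 (-2.77), CDH1 (-0.46) and CDX2 (-0.81), which had 4 reads in intestine. UCP3 had 16.5 reads per 1000 in P5 organoids (15.9 to 17.2) and 0.296 in P10 organoids (0.220 to 0.390), against 0 in intestine, which allows up to 0.0907. Against single markers, the lower bound of UCP3 for P10 organoids minus intestine was below 0 for KRT18 (-1.28) and CDX1 (-0.49). For these it gives no direction, and it was above 0 for the other markers. Epithelial markers cannot serve as a scale for muscle, where they had 277 reads in all.

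The muscle markers did not accompany UCP3 in organoids. In P5 organoids, which had more UCP3 reads than muscle, the 10 skeletal muscle markers had 39 reads in all, against 687710 in muscle, and MYH2, MYH7, TNNT3 and TNNC2 were at 0. MYOD1, the muscle determination factor, had 178 reads in muscle and none in the other libraries. The 12 enterocyte markers summed to 4836 CPM in P5 organoids and 236 CPM in P10 organoids. Between the passages 8 of the 12 were at least 2-fold lower in P10 organoids, ANPEP, SI, FABP2 and SLC15A1 among them, beside 17.7% of all rows. SLC2A5 was higher (1.22, 0.53 to 2.04), and ALPI and LCT had 3 reads or fewer at both. The summed level was highest in intestine, 30924 CPM, most of it from FABP1, FABP2 and APOA4. Some single markers had another order. The peptidase ANPEP had 7.03 CPM in intestine, 2066 CPM in P5 organoids and 13.7 CPM in P10 organoids. The disaccharidase SI had 129, 457 and 45.0 CPM in the same order, and the peptide transporter SLC15A1 had 181, 341 and 5.98 CPM. These 3 were highest in P5 organoids, as UCP2 and UCP3 were, but most of the list went the other way. Set against intestine, 8 of the 12 fell by 2-fold or more at P5, FABP1, FABP2 and APOA4 among them. ANPEP, SI and MEP1A, with 9 reads at P5, rose that far, and SLC15A1 (0.70) did not pass 2-fold. Over all rows 20.6% passed 2-fold downward and 26.4% upward. The 10 proliferation markers summed to 717 CPM at P5, 1302 CPM at P10 and 173 CPM in intestine. The part of these markers in the UCP2 and UCP3 levels was not tested.

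**Figure D2:**
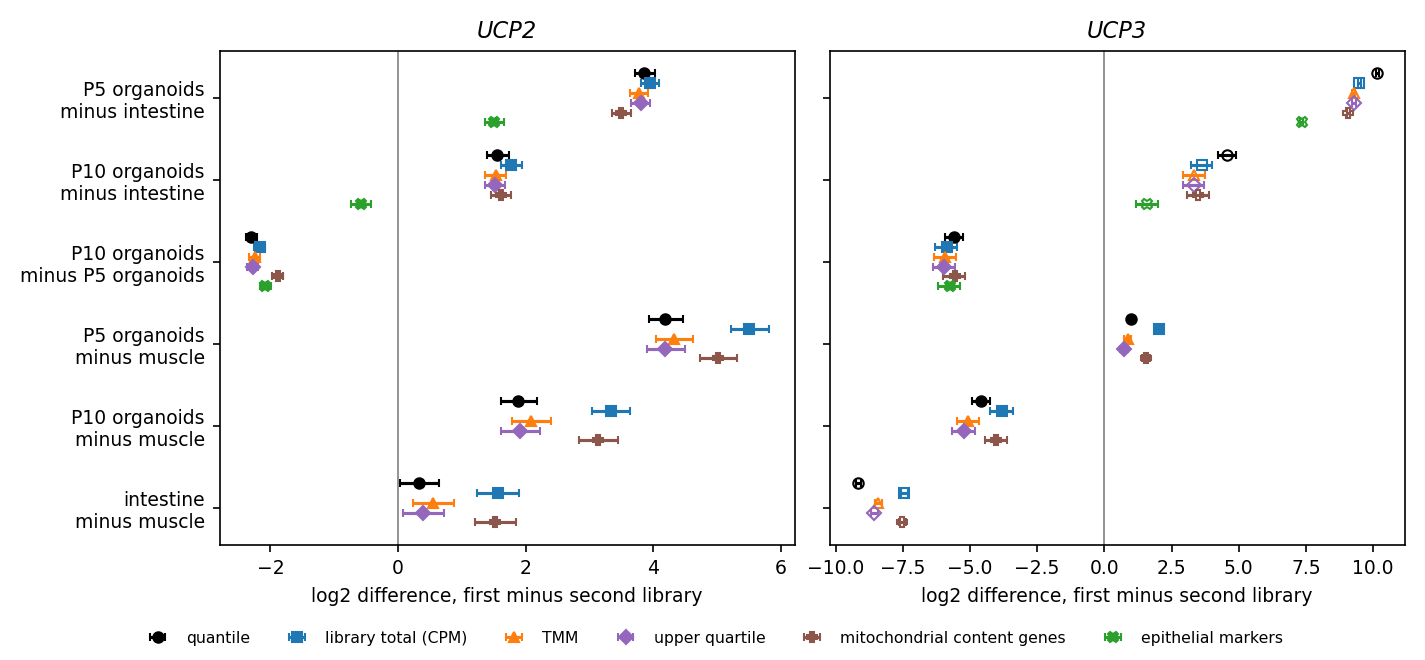
Log2 differences of UCP2 and UCP3 between pairs of libraries under 6 scalings, with bars for 95% counting intervals and open symbols where a library at 3 reads or fewer makes the value a bound. The difference of UCP2 between P10 organoids and intestine turned from 1.55 with quantile normalisation to -0.58 when scaled to epithelial markers, a value that was 0.82 without the keratins, whereas both genes stayed lower in P10 than in P5 organoids under all 6.

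Between P5 organoids and intestine, and between the passages, genes that mark mitochondrial content differed less than the uncoupling genes did. The list of 12 genes of general mitochondrial function, such as citrate synthase (CS), the outer membrane channels (VDAC1, VDAC2 and VDAC3) and subunits of the respiratory chain, had 3 members past 2-fold upward and 0 downward in P5 organoids against intestine. The median log2 difference was 0.48, beside 0.10 over all rows, of which 26.4% passed 2-fold upward and 20.6% downward. The 3 were TOMM40 of the import pore (1.22), CS (1.13) and VDAC1 (1.12). Between the passages 1 of the 12, VDAC1, was at least 2-fold lower in P10 organoids (-1.06), beside 17.7% of all rows, and the median was -0.40.

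Per 1000 reads of this list, UCP2 had 7.69 reads in intestine (6.96 to 8.48), 2.67 in muscle (2.17 to 3.25), 87.0 in P5 organoids (84.5 to 89.5) and 23.6 in P10 organoids (22.3 to 24.8). UCP3 had 0 in intestine, 14.1 in muscle (12.9 to 15.4), 41.5 in P5 organoids (39.8 to 43.3) and 0.853 in P10 organoids (0.633 to 1.13). The order of the libraries was the same as by CPM for both genes.

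Among the other carriers of the family, SLC25A5 and SLC25A27 had the order of UCP2 by CPM, with smaller differences among intestine and the organoids. Against muscle SLC25A5 differed by more than UCP2 did, with log2 differences of 7.42 and 4.18 in P5 organoids. UCP1 had 1 read at P10 and none in the other libraries. SLC25A27, SLC25A14 and SLC25A30, carriers related to the uncoupling proteins, had 76, 358 and 82 reads in intestine and 123, 239 and 81 in P5 organoids, with log2 differences of 1.52 (1.03 to 1.99), -0.28 (-0.52 to -0.03) and 0.82 (0.35 to 1.31). In P10 organoids they had 127, 476 and 246 reads, and in muscle 17, 129 and 97.

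The adenine nucleotide carriers exchange ADP and ATP across the same membrane. SLC25A4, the form of skeletal muscle and heart, had 23058 reads in muscle and 1012 to 1474 elsewhere. SLC25A5 had 5221 reads at P5, 5418 at P10, 1752 in intestine and 13 in muscle, with a log2 difference of 1.77 (1.70 to 1.85) for P5 organoids minus intestine. SLC25A6 had 12153, 20407, 12847 and 829 reads in the same order, and SLC25A31 had none but 3 in P10 organoids. Of the 8 carriers, 2 passed 2-fold upward in P5 organoids against intestine and 0 downward, beside the 26.4% and 20.6% of all rows given above. With TMM or upper-quartile scaling SLC25A5 alone passed, and the difference of SLC25A27 fell to 0.90 at its lowest. In P10 against P5 organoids 0 passed downward, beside the 17.7% of all rows given above. The 2 whose values passed upward, beside 17.0% of all rows, were UCP1 and SLC25A31, for which 3 reads or fewer allow no fold. SLC25A30 was higher at P10 than at P5 by 0.996 (0.67 to 1.32), and by 1.21 at the highest of the scalings. It was also 1.81 higher in P10 organoids than in intestine (1.40 to 2.26). SLC25A27 was 1.13 higher in P10 organoids than in intestine and SLC25A5 1.42 higher, and both were slightly lower at P10 than at P5, by log2 differences of -0.39 (-0.71 to -0.06) and -0.35 (-0.41 to -0.29).

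Regulators of uncoupling protein transcription were measured on 19 rows. In P5 organoids against intestine 3 were at least 2-fold higher, 3 at least 2-fold lower and 13 within 2-fold, with a median of 0.20. These are 15.8% each way, below the 26.4% and 20.6% of all rows. PPARGC1A, a coactivator of PPAR receptors and of mitochondrial genes, had 1293 reads at P5, 418 at P10, 559 in intestine and 492 in muscle. Its log2 difference was 1.40 for P5 organoids minus intestine (1.25 to 1.56) and -2.10 for P10 minus P5 organoids (-2.26 to -1.94). SIRT3, a mitochondrial deacetylase, was also higher at P5 (2.17, 1.73 to 2.60). THRB, a thyroid hormone receptor, was lower (-2.68, -3.04 to -2.35). CREB3L3, a liver and gut factor of fasting metabolism, had 12 reads at P5, 7 at P10 and 869 in intestine, a log2 difference of -5.58 at P5 (-6.53 to -4.77).

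Between the passages 4 regulators were at least 2-fold lower in P10 organoids and 0 higher, with a median of -0.23 and 15 within 2-fold. The 4 are 21.1% of the list, near the 17.7% of all rows. They were PPARGC1A, its relative PPARGC1B (-1.12), and the fatty acid receptors PPARG (-1.85, -2.01 to -1.69) and PPARD (-1.60, -1.82 to -1.37). PPARG had 1258 reads at P5, 484 at P10, 654 in intestine and 31 in muscle. PPARA, the other PPAR receptor of the list, was within 2-fold between the passages (-0.23, -0.44 to -0.04). It was lower in P5 organoids than in intestine (-1.30, -1.47 to -1.12), with 361 and 1010 reads. PPARG, PPARD, PPARA and PPARGC1B were named after their values were seen. With library totals, TMM or upper-quartile scaling, 5 regulators were at least 2-fold lower and 1 higher between the passages.

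Fatty acid oxidation genes and other PPAR targets, 34 rows, went both ways. Against intestine 5 passed 2-fold upward in P5 organoids, 13 passed it downward and 16 did not pass it, and the median log2 difference was -0.64. All rows passed upward in 26.4% and downward in 20.6%. Among the lowest was CD36, a fatty acid uptake receptor, with 4394 reads in intestine and 16 in P5 organoids (-7.59). PDK4, an inhibitor of pyruvate oxidation and a textbook PPAR target, had 1303 and 14 reads (-5.97). FABP1, a fatty acid binding protein of enterocytes, had 341994 and 5328 (-5.38). In muscle PDK4 had 4137 reads.

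ANGPTL4, a secreted lipase inhibitor and PPAR target that was named after its values were seen, went with UCP2. It had 2522 reads at P5, 681 at P10, 268 in intestine and 17 in muscle, so that its log2 difference was 3.53 for P5 organoids minus intestine (3.34 to 3.73) and -2.37 for P10 minus P5 organoids (-2.49 to -2.25). Between the passages 4 of the 34 were at least 2-fold higher in P10 organoids, 8 at least 2-fold lower and 22 within 2-fold, beside 17.0% and 17.7% of all rows. Of the 4, CPT1B and ACACB had 15 reads each in P10 organoids, and with TMM or upper-quartile scaling 0 of the 34 were at least 2-fold higher. The 8 that were lower included FABP2 (-5.43, -5.52 to -5.32), FABP1 (-2.03), CD36 with 16 and 3 reads, and PDK4 with 14 and 0. FABP2 was named here after its values were seen.

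The 10 listed antioxidant genes were split. GPX4, which removes lipid peroxides, had 1900 reads at P5, 2956 at P10, 265 in intestine and 193 in muscle, and exceeded intestine at P5 by 3.13 on the log2 scale (2.93 to 3.34). Catalase (CAT) was lower in P5 organoids than in intestine (-2.10, -2.22 to -2.0), and so was GPX1 (-1.93, -2.10 to -1.78). TXNRD2, the mitochondrial thioredoxin reductase, had 116 reads in intestine and 32 in P5 organoids (-0.95, -1.56 to -0.41) and 462 in P10 organoids. The other 6 did not pass 2-fold in this comparison, and the median of the 10 was 0.23. In all, 1 of the 10 passed 2-fold upward and 2 downward, beside 26.4% and 20.6% of all rows. Between the passages TXNRD2 (3.03) and GPX1 (1.15) were at least 2-fold higher in P10 organoids and 0 of the 10 lower, and 2 of 10 is near the 17.0% of all rows.

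**Figure D3:**
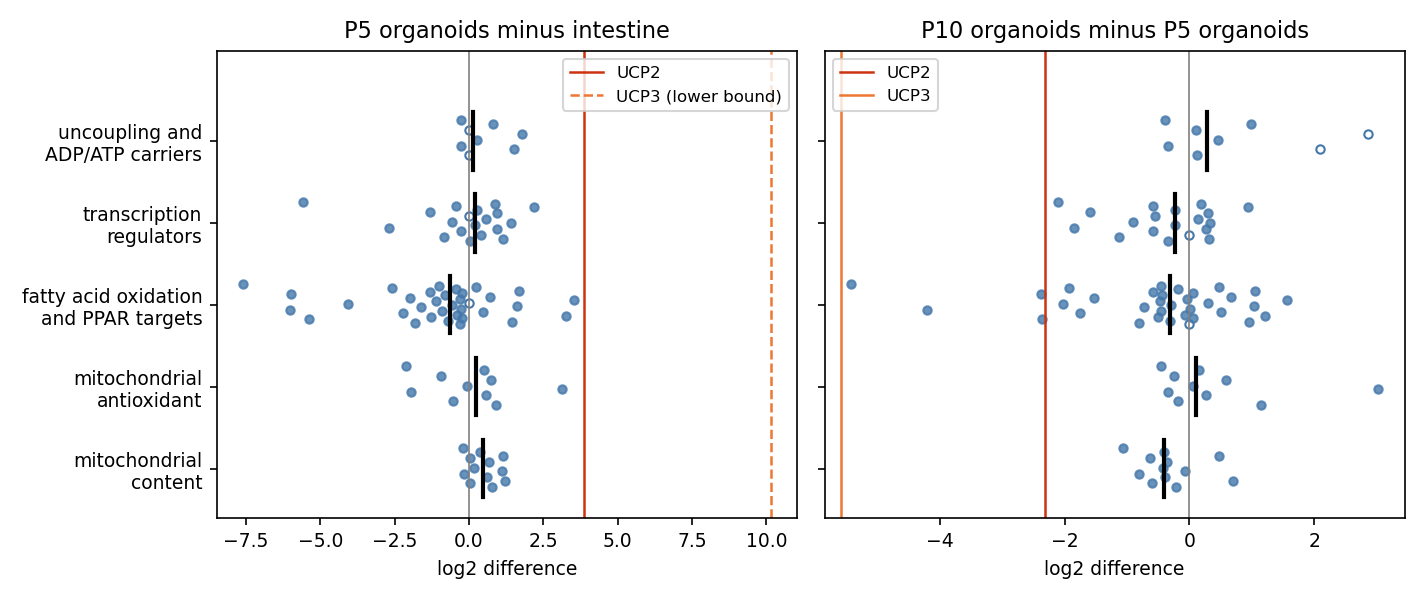
Log2 differences of quantile-normalised counts for the genes of 5 lists, P5 organoids minus intestine and P10 minus P5 organoids, with a point per gene (open where both libraries had 3 reads or fewer), a black bar at each list's median, and lines at UCP2 and UCP3 (dashed for a lower bound). UCP2 at 3.86 and UCP3 at 10.15 or more lay above every gene of the 5 lists in P5 organoids against intestine, and UCP3 at -5.58 lay below every one of them between the passages. FABP2 at -5.43 (-5.52 to -5.32) lay within the counting interval of UCP3 there (-5.92 to -5.26).

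The genes next to the pair on the chromosome were taken from the order of RefSeq records on assembly ARS-UCD2.0, since the build behind the counts is not given in the sources used here. Of the 7 records nearest to the pair, 3 matched a row with reads: PAAF1, a proteasome-associated factor, and DNAJB13, a protein of cilia and sperm tails, on the side of UCP2, and C2CD3, a centriole protein, on the side of UCP3. DNAJB13, which lies next to UCP2, had 268 reads at P5, 17 at P10 and none in either tissue. At P5 it exceeded intestine by at least 136-fold, or 73.1-fold at the lowest of the scalings, and its log2 difference between P10 and P5 organoids was -3.75 (-4.32 to -3.19), between those of UCP2 and UCP3. It had no reads in muscle, unlike UCP3.

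C2CD3 had 28 reads at P5, 12 at P10, none in intestine and 42 in muscle. Like UCP3 it was at 0 in intestine alone, at levels of 0.677 to 3.25 CPM elsewhere. PAAF1 had 254 reads at P5, 427 at P10, 488 in intestine and 73 in muscle, and was lower in P5 organoids than in intestine (-0.68, -0.90 to -0.45). C2CD3 exceeded intestine at P5 by at least 4.16 on the log2 scale, 2.98 at the lowest of the scalings, and was lower at P10 than at P5 (-1.16, -1.93 to -0.37), on few reads. DNAJB13, like UCP2 and UCP3, was highest in P5 organoids, whereas C2CD3 was highest in muscle and PAAF1 in intestine. Reads that fell on overlapping genes, or that aligned to more than 1 place, were counted, and whether the counting used strand is not given in the sources used here, so reads of adjoining genes may not be fully separated.

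**Figure D4:**
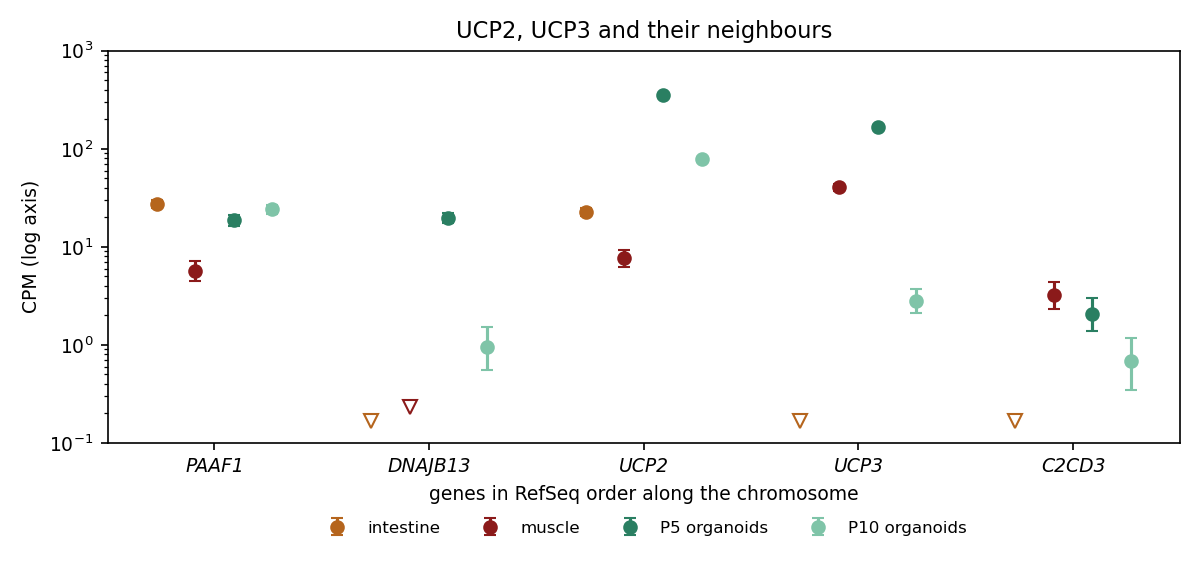
Levels in CPM on a log axis of UCP2, UCP3 and the 3 neighbouring genes with reads, in their RefSeq order, for the 4 libraries. Bars are exact Poisson 95% intervals and open triangles the limit that a count of 0 allows; DNAJB13, UCP2 and UCP3 were each highest in P5 organoids, and DNAJB13, UCP3 and C2CD3 had 0 reads in intestine.

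Likeness of pattern was measured as the Euclidean distance between log2 normalised values centred on their own mean over the 4 libraries, among 15050 other rows with at least 50 reads in their highest library. A distance over 4 libraries is coarse and is given as a description. The nearest to UCP2 were SLC11A2, the iron importer of the enterocyte brush border (distance 0.38), AREG, an EGF receptor ligand (0.44), NEURL1B, a ubiquitin ligase (0.45), LOC104973089 (0.48) and EPN3, an endocytic adaptor (0.60). SLC11A2 had 4306 reads at P5, 1036 at P10, 403 in intestine and 104 in muscle. NEURL1B had 11281, 3454, 1461 and 389 reads in the same order. Both were highest in P5 organoids and lowest in muscle, as UCP2 was.

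The distances from UCP3 were larger. Its nearest rows were LOC782922 (distance 3.07), SRL, a protein of the muscle sarcoplasmic reticulum (3.34), SLC13A1, a sulfate transporter (3.46), SLC7A9, a cystine and basic amino acid transporter (3.89), and BDH1, a ketone body enzyme (4.16). LOC782922 had 2732 reads at P5, 32 at P10, 18 in intestine and 364 in muscle. SLC13A1 had 3019, 44, 1 and 30 reads in the same order, and SLC7A9 had 2297, 91, 9 and 45. SRL had 211, 74, 1 and 870 reads and BDH1 had 159, 15, 7 and 430, so these were highest in muscle, unlike UCP3. UCP3 and UCP2 were 7.77 apart. This placed UCP2 at rank 1208 among the 15050 matches of UCP3, and UCP3 at rank 13828 among those of UCP2. The distances of UCP3 depended on its 0 reads in intestine. The nearest was at 2.23 with counts of 3 or fewer set at 3 reads, at 1.54 with a pseudocount of 5 and at 3.91 with one of 0.1, against 0.31 to 0.38 for UCP2 under these settings. The nearest 5 rows to UCP3 were the same with the first and second of these, and 2 of the 5 were shared with the last.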

How the data were processed

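RNA of 4 bovine samples, 1 library each, was read with the QuantSeq 3′ mRNA-Seq kit as single-end reads. Per the methods of the study and the labels, the authors aligned reads with Bowtie2 and counted them per gene with Bedtools, reads with several alignments included. The deposited values are raw read counts per gene symbol. The genome build is not given in the sources used here. Of the files' columns, all 4 were used.

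The 22200 rows with at least 1 read were quantile-normalised (tied counts took the value at the average rank) and analysed as log2(value + 1). The study's methods name quantile normalisation with edgeR. Limits of CPM are exact Poisson 95% intervals, carried through the normalisation and combined by square-and-add for differences. A library with 3 reads or fewer was set at 3 reads and the difference called a bound. No test was run, since each group has 1 library. Calls are differences of at least 2-fold. PCR copies are not independent, so intervals cover counting error only.

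UCP2 and UCP3, the gene lists and the markers were chosen with earlier results of these data known. Named genes are the pair, up to 3 RefSeq records on each side, the 8 carriers, from each other list up to 4 genes with at least 50 reads and the largest difference of P5 organoids and intestine, and the 5 rows of nearest pattern to each gene. A gene that this rule names among the fatty acid oxidation genes is counted but not reported here. Alternatives were library totals (CPM), TMM, upper quartile, pseudocounts of 0.1 and 5, rows with at least 10 reads, and totals without RN18S1. Scaling to epithelial markers, with and without keratins, and to mitochondrial content genes, and other pseudocounts for the pattern distances, were chosen after seeing the data. The calculations were tested on simulated data. The simulated libraries shared a common profile apart from a small set of changed rows. They therefore did not test the normalisation on libraries as unlike as these. Scripts ran under R 4.3.3 with limma 3.58.1 and edgeR 4.0.16, and under Python 3.11.15 with scipy 1.17.1, pandas 2.3.3, matplotlib 3.10.9 and numpy 2.4.6.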

Additional observations from a re-analysis of the deposited data

How the results depend on the processing

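All values here are log2 differences of the first library minus the second, and the 6 alternatives fixed at the outset kept the direction of each of the 12 differences of UCP2 and UCP3. They left UCP2 between 3.77 and 3.94 for P5 organoids minus intestine. Among them, library totals moved UCP2 past its counting interval in the 5 other comparisons, to 1.77 for P10 organoids minus intestine, -2.17 for P10 minus P5 organoids, 5.50 for P5 organoids minus muscle, 3.33 for P10 organoids minus muscle and 1.56 for intestine minus muscle. For P5 organoids minus intestine, the lower bound of UCP3 was 9.49 with library totals, 9.27 with TMM, 9.29 with upper quartile, 11.01 and 8.57 with pseudocounts of 0.1 and 5, and 10.34 over rows with at least 10 reads. For P10 organoids minus intestine it was 3.63, 3.35 and 3.33 with the 3 scalings and 5.40 and 3.10 with the pseudocounts. For P10 minus P5 organoids UCP3 was -5.92 with TMM and -5.96 with upper quartile. For P5 organoids minus muscle it was 2.05, 0.86 and 0.73 with library totals, TMM and upper quartile, past 2-fold with the first only, and for P10 organoids minus muscle it was -3.81, -5.06 and -5.23. For intestine minus muscle the bound was -7.44, -8.41 and -8.56 with these scalings, -10.01 and -7.57 with the pseudocounts and -9.34 over rows with at least 10 reads.

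Other scalings were chosen after seeing the data. With the epithelial markers UCP2 was 1.503 for P5 organoids minus intestine, -2.08 for P10 minus P5 organoids and -0.58 for P10 organoids minus intestine, the 1 difference that turned direction. UCP3 was at least 7.35 and 1.59 for P5 and P10 organoids minus intestine. Without the keratins among these markers UCP2 was 2.33, -1.51 and 0.82 for the same comparisons, so that the direction did not turn, and UCP3 was at least 8.08 and 2.88 and, for P10 minus P5 organoids, -5.20. With the mitochondrial content genes UCP2 was 3.50 for P5 organoids minus intestine, -1.88 for P10 minus P5 organoids, and 5.01, 3.13 and 1.52 for P5 organoids, P10 organoids and intestine minus muscle. UCP3 was at least 9.07 and 3.50 for P5 and P10 organoids minus intestine, and 1.56, -4.02 and -7.52 for the comparisons with muscle. The causes of these shifts were not tested.

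No count of rows past 2-fold changed by more than 1.5 times under an alternative, but the share of them that was higher in the first library moved with the scaling: from 56.2% to 44.3% with TMM and 45.1% with upper quartile for P5 organoids minus intestine, from 54.6% to 39.8% and 39.4% for P10 organoids minus intestine, and from 49.0% to 40.1% and 38.4% for P10 minus P5 organoids. The median row of P5 organoids minus intestine was 0.10 with quantile normalisation and 0 with TMM or upper quartile. TMM put the median row of intestine minus muscle at 0.11 and quantile normalisation put it at 0. With library totals the share moved from 53.9% to 74.7%, 53.5% to 69.8% and 50.7% to 78.8% for P5 organoids, P10 organoids and intestine minus muscle. Without RN18S1 in the totals, muscle had 10.04 CPM of UCP2 and 53.0 CPM of UCP3, and P5 organoids 368 and 176 CPM. No alternative leaves out a replicate, since each group had 1 library.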
